A study of Mus musculus with 42 samples.

Results

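The telomere-proximal ends of the mouse autosomes were examined for lamina-associated domains (LADs) in liver. The last 10 Mb of chr1 to chr19 were divided into 100-kb bins counted back from the chromosome end in mm10, which gave 1900 bins, 100 per chromosome, of 24620 autosomal bins in all. A bin was in a LAD when the LADs of a mouse covered 50 kb or more of it, and the percentage of bins in a LAD is called the LAD share. The choice of the bins used position and no measured value.

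LADs came from chromatin immunoprecipitation and sequencing of lamin B1 (LMNB1) in livers of 14 wild-type C57Bl/6 mice. Mice of the synchronized groups went without chow for 24 h, were refed from circadian time (CT) 0, and had livers taken at CT0, CT6, CT12, CT18, CT24 and CT30 (2 mice each), while 2 non-synchronized (NS) mice had their livers taken before the fast. The source name and gender labels give the sex as female and the growth protocol as male, while the methods of the study state male. Age is not stated in the sources used here. Whole liver was used, so the LADs of hepatocytes and of other liver cells are measured together. The LAD lists hold positions without a score or a read count, so read depth is unknown, and the precision comes from the spread between mice. The samples list a single input library per time point. If both mice of a time point shared it, their spread misses differences between inputs. Time and input then cannot be told apart.

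Lamin B1 is a filament protein of the nuclear lamina, the meshwork under the inner nuclear membrane. LADs are long stretches of chromatin that contact the lamina and are generally poor in genes, rich in A and T, and transcriptionally silent. Mouse autosomes are acrocentric, with the centromere and one telomere at the start of the reference sequence and the other telomere at its end.

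The reference itself sets how close to the telomere a LAD can be seen. The last 100 to 150 kb of each autosome is a gap of undetermined bases in GRCm38.p6 (mm10). None of the 30 gap bins of the ends was in a LAD in any mouse, and the 19 bins of the last 100 kb were all gap.

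Interior sequence of long LAD and LAD-free runs is shown by the 120 bases at the centre of 4 runs on the plus strand of GRCm38.p6, 2 in a LAD in at least 12 of 14 mice (chr17 and chr19) and 2 in a LAD in none (chr7 and chr11), picked as examples, with CG dinucleotides in capitals.
chr17:91887212-91887331: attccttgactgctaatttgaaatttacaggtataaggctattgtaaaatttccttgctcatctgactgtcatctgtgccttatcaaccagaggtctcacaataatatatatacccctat
chr19:52081507-52081626: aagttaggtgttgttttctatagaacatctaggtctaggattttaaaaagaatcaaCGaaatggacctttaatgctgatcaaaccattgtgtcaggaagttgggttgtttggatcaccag
chr7:140441400-140441519: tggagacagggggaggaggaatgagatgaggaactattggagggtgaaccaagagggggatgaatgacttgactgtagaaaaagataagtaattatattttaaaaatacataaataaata
chr11:117332484-117332603: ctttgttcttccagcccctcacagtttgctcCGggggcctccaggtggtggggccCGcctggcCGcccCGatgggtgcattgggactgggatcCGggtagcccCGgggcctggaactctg
GC content was 37.3% over the whole chr17 run and 38.4% over the chr19 run, against 47.1% over the chr7 run and 49.4% over the chr11 run. The printed bases do not all follow the run they come from, since the chr7 print held 35.8% GC and no CG, whereas the chr11 print held 69.2% GC and 6 CG.

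The ends carried fewer LADs than the rest of the autosomes in every mouse. At NS, 8.63% and 13.8% of end bins were in a LAD in replicates 1 and 2, against 13.97% and 21.8% of the other bins. At CT0 the end shares were 10.4% and 14.2% against 17.8% and 24.1%, and at CT6 they were 9.68% and 12.5% against 21.0% and 24.2%. The end shares of each mouse lay below the share of its own remaining bins. They were 13.6% and 14.7% at CT12 against 23.0% and 24.3%, and 14.2% and 15.5% at CT18 against 26.1% and 27.4%. CT24 had end shares of 11.7% and 10.7% against 26.8% and 21.9%, and CT30 had 9.74% and 6.95% against 16.6% and 16.5%. The highest end share was thus in CT18 replicate 2 and the lowest in CT30 replicate 2, while the ranges of end and other bins over the 14 mice overlapped slightly.

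**Figure D1:**
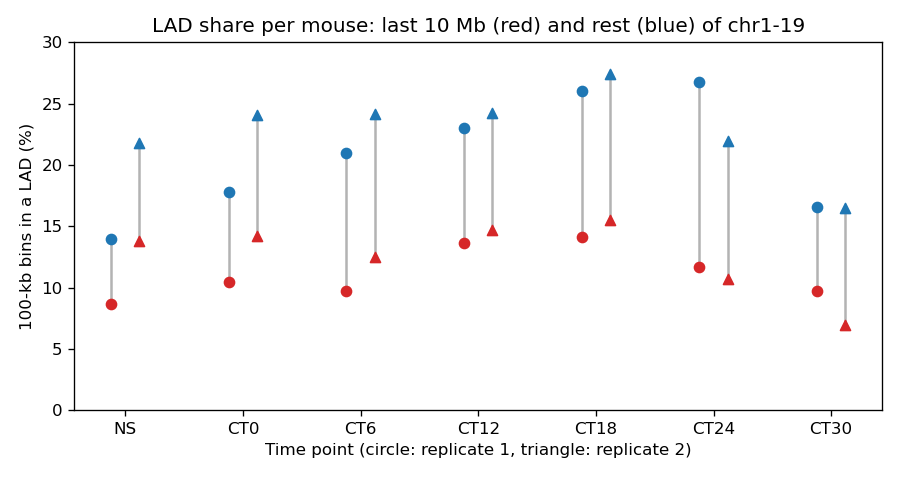
LAD share in percent of 100-kb bins (y axis) for each mouse by time point (x axis), with the last 10 Mb in red and the rest of chr1 to chr19 in blue, circles for replicate 1 and triangles for replicate 2, and a grey line joining the values of one mouse. The red point lies below the blue point in all 14 mice.

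The mean end share was 11.9% ± 2.58 (SD, n = 14 mice) and that of the rest 21.8% ± 4.16. The difference was -9.93 ± 2.52 percentage points, and it was negative in 14 of 14 mice (exact two-sided sign-flip permutation test, p = 0.000122, the smallest p that 14 mice allow). The test runs over mice, which share one genome, so it does not treat bins or chromosomes as replicates. Among libraries with the same number in their deposited name, the difference was -9.64 points in 6 libraries, -10.8 in 5 and -9.07 in 3.

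GC content moved with this difference. The end bins had 44.1% GC and 10.6 protein-coding gene starts per Mb, and the rest 41.7% GC and 8.27 starts per Mb. When the rest was weighted to the GC deciles of the ends, its LAD share was 12.3% against 12.1% in the ends (gap bins left out), a difference of -0.245 ± 1.59 points, with 8 mice lower and 6 higher (exact sign-flip permutation test, n = 14, p = 0.573). Weighted to gene density instead, the ends stayed -5.30 ± 1.97 points below the rest in 14 of 14 mice (exact sign-flip permutation test, p = 0.000122). With all ends pooled, the lower LAD share was therefore not resolved from that of other bins of like GC content. Single ends lay on both sides of the share weighted to their own GC deciles, a comparison chosen after the data had been seen. The differences were 18.2 points for chr17, 12.9 for chr18 and -14.1 for chr14. Of the ends, 4 were called higher and 8 lower, the latter including those at 0% in every mouse. The pooled GC-weighted difference without chr17 and chr18 was not tested.

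**Figure D2:**
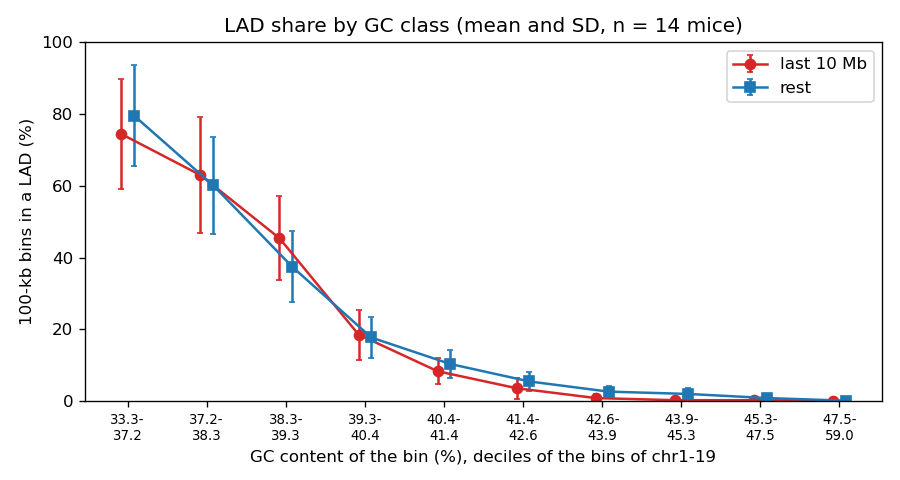
LAD share in percent (y axis) by decile of GC content of the bins of chr1 to chr19 (x axis, percent GC), mean and SD over 14 mice, for the last 10 Mb (red circles) and the rest (blue squares). Both fall from over 74% in the decile poorest in GC to under 0.1% in the richest.

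Within GC deciles the ends were not uniformly below or above the rest. In the third decile, 38.3 to 39.3% GC, the end share was 45.4% ± 11.7 and that of the rest 37.5% ± 9.95, higher in 13 of 14 mice. In the seventh decile, 42.6 to 43.9% GC, the end share was 0.802% ± 1.06 against 2.60% ± 1.54, lower in 14 of 14 mice. The ends held few bins poor in GC, with 4.17% of their sequenced bins in the lowest decile and 22.9% in the highest.

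The other end of the chromosomes gave a reference of the same size. The bins from 3 to 13 Mb, next to the centromere, had a LAD share of 21.4% ± 4.67 (n = 14), and the telomere-proximal share was -9.54 ± 3.24 points from it, lower in 14 of 14 mice (exact sign-flip permutation test, p = 0.000122). The centromere-proximal bins had 41.5% GC and 7.84 gene starts per Mb, and the part of GC content in this difference was not tested.

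Most end bins were never in a LAD. Of the 1900 end bins, 1479 (77.8%) were in a LAD in none of the 14 mice, against 62.3% of the rest. At the other extreme, 127 (6.68%) were in a LAD in at least 12 mice and 57 (3.00%) in all 14, against 13.3% and 6.35% of the rest. The 127 bins lay on 5 chromosomes (chr12, chr13, chr17, chr18 and chr19), had 37.6% GC and held 1.10 gene starts per Mb, whereas the bins never in a LAD had 45.6% GC and 12.1 starts per Mb.

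The ends of different chromosomes differed widely. The LAD share was 0% in every mouse at the ends of 6 chromosomes (chr1, chr5, chr6, chr7, chr8 and chr9), whose remaining bins had mean shares from 19.6% (chr9) to 27.4% (chr6). It was highest at the ends of chr17, 54.1% ± 8.84 against 21.6% ± 4.31 in the rest of that chromosome, and chr18, 46.5% ± 5.21 against 13.6% ± 3.34. These ends lay above the rest of their chromosome in 14 of 14 mice. The chr17 end ranged from 27% in CT30 replicate 1 to 62% in CT24 replicate 1, and the chr18 end from 34% in CT30 replicate 2 to 55% in CT30 replicate 1.

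The ends of chr13 and chr3 were also higher than the rest of their chromosome, with a wide spread between mice. The chr13 end had 26.8% ± 14.5 against 15.2% ± 4.80, higher in 10 of 14 mice, and the chr3 end 25.9% ± 14.8 against 16.0% ± 4.65, higher in 11 of 14. Over 19 exact sign-flip permutation tests with Benjamini-Hochberg adjustment, 13 ends were lower and 4 higher than the rest of their chromosome, and 2 were not called, chr12 (19.2% ± 9.44, adjusted p = 0.0706) and chr19 (15.7% ± 3.45, adjusted p = 0.383). The 13 include chr1 and chr5 to chr9, which were at 0% in every mouse. The direction and p of their tests were thus fixed in advance, and their calls carry no weight as tests. The largest adjusted p among the called ends, 0.0405, was that of chr3, whose call was lost without any one of the 8 libraries of NS, CT0, CT12 and CT18. Over the last 20 Mb the calls of chr14 and chr16 turned from lower to higher, chr19 was called higher, and those of chr3, chr10 and chr13 were lost.

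**Figure D3:**
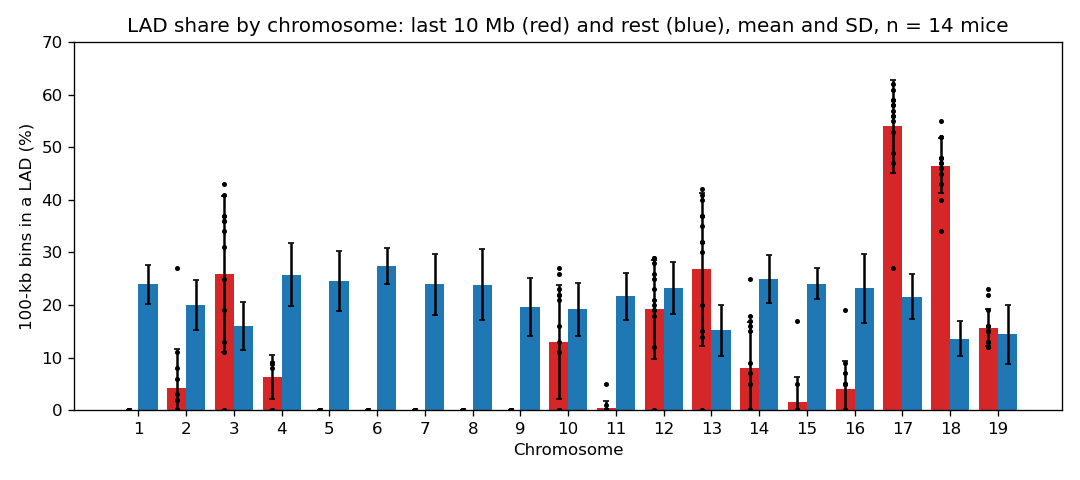
LAD share in percent of bins (y axis) by chromosome (x axis), with red bars for the last 10 Mb, blue bars for the rest, error bars for the SD over 14 mice, and black points for the end share of each mouse. The bars of chr17 and chr18 rise to 54.1% and 46.5%, and 6 ends stand at 0%.

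The remaining ends held few LADs. Mean end shares were 12.9% on chr10, 8.00% on chr14, 6.36% on chr4, 4.21% on chr2, 3.93% on chr16, 1.57% on chr15 and 0.429% on chr11. Across the 19 chromosomes the mean end share went with low GC content (Pearson r = -0.71), with low gene density (r = -0.59) and with a low share in the rest of the chromosome (r = -0.59). These are descriptions over 19 points from one genome, each end also differing in base composition.

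Beside bins of like GC content the ends differed in both directions. Each end was set against autosomal bins outside the ends weighted to its own GC deciles, a comparison chosen after the data had been seen. By this measure 4 ends were higher (chr4, chr17, chr18 and chr19) and 8 lower (chr1, chr5 to chr10 and chr14). The ends of chr1 and chr5 to chr9 were at 0% in every mouse, so the direction and p of their tests were fixed in advance. Their calls therefore carry no weight as tests. The weighted share was lowest for chr7 among them, 1.20% ± 0.665, and highest for chr6. The chr17 end had 54.6% against 36.4%, higher in 14 of 14 mice, and the chr14 end 8.08% against 22.2%, lower in 14 of 14 (adjusted p = 0.000232 for both, exact sign-flip permutation tests, n = 14). The chr6 end had 0% against 7.76% ± 2.10, whereas chr3 and chr13, called above the rest of their own chromosomes, were not called here (adjusted p = 0.462 and 0.681, exact permutation tests, n = 14).

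LAD share did not change evenly with distance from the end. It was 12.1% ± 5.17 in the last Mb, 20.6% ± 5.30 from 1 to 2 Mb, 14.9% ± 2.03 from 2 to 3 Mb and 16.1% ± 4.63 from 3 to 4 Mb (n = 14). It was 20.6% ± 5.39 from 4 to 5 Mb, then 4.21% ± 3.76 from 6 to 7 Mb and 0.338% ± 0.569 from 7 to 8 Mb. From 9 to 10 Mb it was 11.1% ± 4.62, and at 18 to 19 Mb it was 27.0% ± 4.42. The class from 7 to 8 Mb thus stood lowest, with 186 of its 190 bins in a LAD in no mouse. In the last Mb 24 of 190 bins were gap bins, never in a LAD, against 0 from 1 to 2 Mb.

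**Figure D4:**
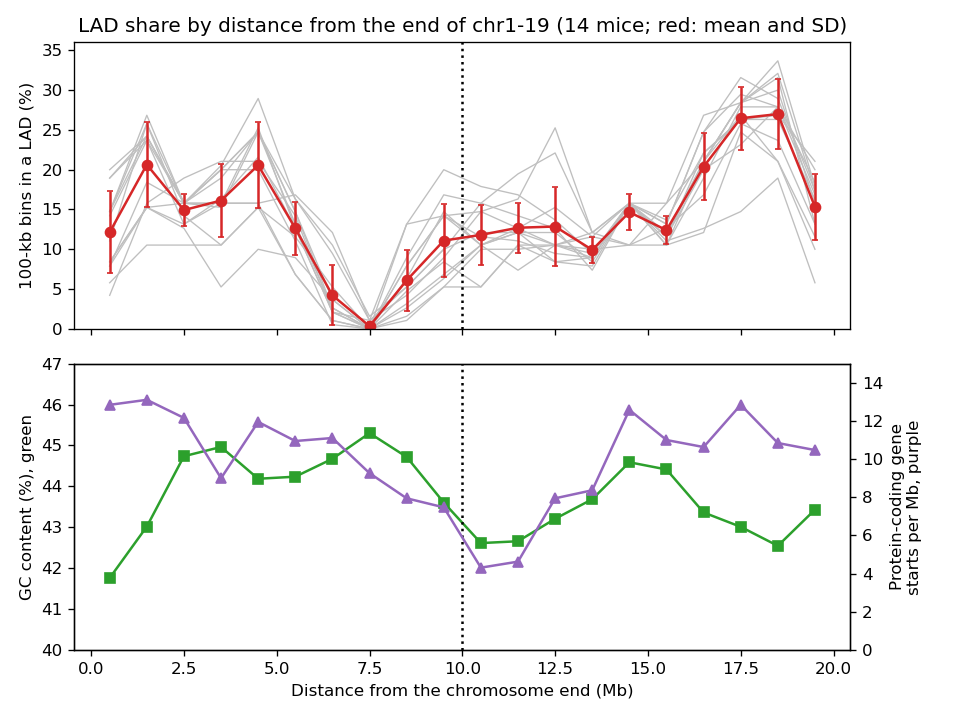
Top, LAD share in percent (y axis) by distance from the chromosome end in Mb (x axis, 1-Mb classes over chr1 to chr19), with a grey line for each mouse, mean and SD in red, and the limit of 10 Mb dotted. Bottom, GC content in percent (green, left axis) and protein-coding gene starts per Mb (purple, right axis). LAD share reaches its lowest mean, 0.338%, from 7 to 8 Mb at 45.3% GC, whereas it is 16.1% from 3 to 4 Mb at 45.0% GC.

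Over the last 10 Mb the slope was -1.35 ± 0.517 points per Mb, that is, higher shares nearer the end, in 13 of 14 mice (exact sign-flip permutation test, p = 0.000244). It rested on chr17 and chr18. Without these chromosomes, a choice made after the data had been seen, the slope was -0.113 (exact sign-flip permutation test, n = 14, p = 0.512). The last 5 Mb had a share of 16.9% ± 3.62 and the bins from 5 to 10 Mb 6.87% ± 2.36, and without chr17 and chr18 these were 8.46% ± 3.55 and 6.25% ± 2.54.

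In the last Mb, LADs were seen on 6 chromosomes only (chr3, chr10, chr12, chr14, chr17 and chr18). The LAD end nearest to a chromosome end lay 0.108 Mb from it, on chr12, in 1 mouse. On chr17 the outermost LAD ended 0.109 to 0.673 Mb from the chromosome end over the 14 mice (median 0.343 Mb), and LADs entered the last Mb in all 14. On chr18 they did so in 12 mice, on chr3 in 10, on chr10 in 9, on chr14 in 8 and on chr12 in 4. At chr5 the outermost LAD ended 42.4 to 66.0 Mb from the chromosome end.

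**Figure D5:**
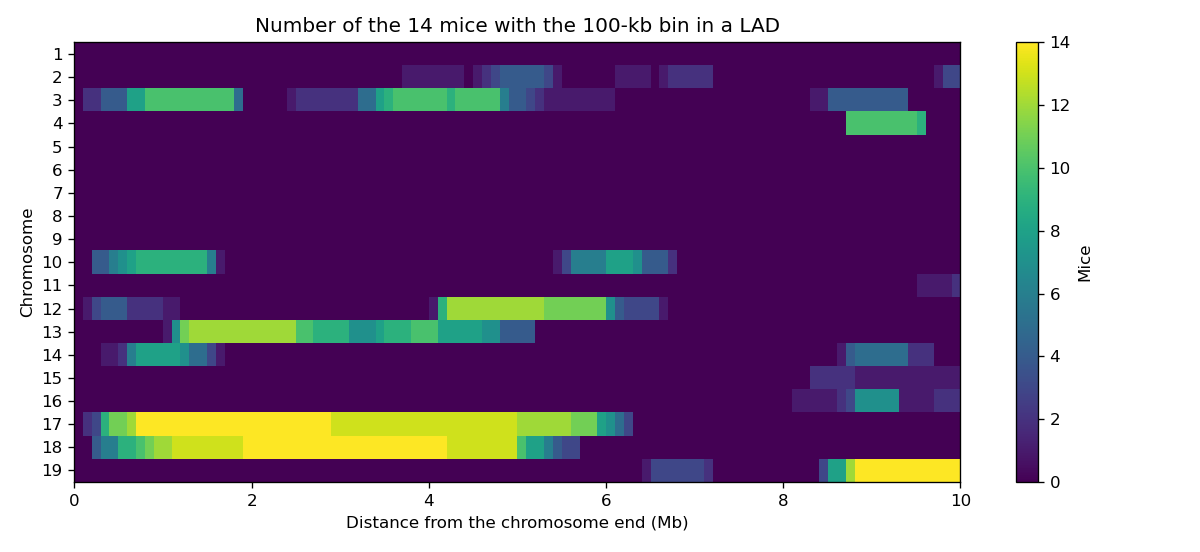
Number of the 14 mice with each 100-kb bin in a LAD (colour), by chromosome (y axis) and distance from the chromosome end in Mb (x axis). Yellow blocks mark bins in a LAD in 14 mice on chr17, chr18 and chr19, and the 6 dark rows are the ends with no LAD in any mouse.

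Bins in a LAD in at least 12 mice formed 5 runs of 5 bins or more, one on each of 5 chromosomes and 12.7 Mb in all. The longest was chr17:89387272-94387271, 5.0 Mb with 37.3% GC. It held the starts of Adcyap1, which encodes the neuropeptide PACAP (14 of 14 mice), and Gm10184 (12 mice). This run was covered to at least 88% in 13 mice and to 46% in CT30 replicate 1. The run chr18:85702640-89802639 spanned 4.1 Mb and held 7 gene starts, among them Neto1, an auxiliary subunit of kainate receptors (13 mice), Socs6, a suppressor of cytokine signalling (13 mice), Rttn, which acts at centrioles (13 mice), and Dok6, an adaptor of receptor tyrosine kinases (11 mice).

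The other 3 runs were shorter. The run chr19:51431567-52731566 spanned 1.3 Mb to the inner limit of the end zone and held 1 gene start, that of Ins1, one of the mouse insulin genes, in a LAD in 14 mice. The run chr13:117921640-119121639 spanned 1.2 Mb with Fgf10, a growth factor of branching organs, Mrps30, a mitochondrial ribosomal protein, and B430218F22Rik, each in a LAD in 12 mice. It was in a LAD over its whole length in 12 mice and over 0% in NS replicate 1 and CT30 replicate 2. The run chr12:114829023-115929022, 1.1 Mb in the immunoglobulin heavy chain variable region, was whole in 12 mice and at 0% in NS replicate 1 and CT0 replicate 1.

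Bins in a LAD in 4 to 10 mice formed 13 runs of 14.2 Mb on 8 chromosomes. In chr13:115221640-117921639, 2.7 Mb next to the stable chr13 run, the covered share was 0% in NS replicate 1 and both CT30 mice, 7% in CT24 replicate 2 and 100% in CT0 replicate 1 and both CT12 mice. Its genes included Isl1, a transcription factor of motor neurons and pancreatic islets (8 mice), and Parp8 and Emb (7 mice each). In chr3:154939681-156839680, 1.9 Mb with Negr1, a neuronal adhesion molecule (9 mice), and Tnni3k, a cardiac kinase (4 mice), the covered share was 58% to 100% in the 10 mice from NS to CT18 and 0% in the 4 mice of CT24 and CT30. The run chr3:158139681-159739680 with Lrrc7, a postsynaptic scaffold (10 mice), and Rpe65, the retinal isomerase of the visual cycle (4 mice), was at 0% in 4 mice, of which 1 was at CT24 and 1 at CT30.

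The run chr10:129094994-130494993 held 60 gene starts in 1.4 Mb, mostly olfactory receptors. It was covered to 64% to 100% in 9 mice and at 0% in 5, replicate 1 of NS, CT0 and CT6 and both CT30 mice. The same 5 mice had no LAD anywhere in the chr10 end. The LAD starts of these 5 libraries lay on grids of 61, 47, 35, 31 and 46 kb, and those of the other 9 on grids of 4 to 19 kb. The end share was 6.95% to 10.4% in these 5 libraries and 10.7% to 15.5% in the other 9. The share of the rest was 13.97% to 21.0% in the 5 and 21.8% to 27.4% in the 9. The part of this grid step in the variable runs and in the end shares was not tested. Over the 14 libraries the difference between ends and rest did not go with the log2 grid step beyond the threshold (Pearson r = 0.30, permutation p = 0.298, and Spearman rho = 0.25, permutation p = 0.387, both 0.387 after adjustment over the pair). Pearson's r was 0.52 without the 2 libraries farthest in grid step (permutation p = 0.0844), 0.50 within replicate 1 and -0.18 within replicate 2.

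Runs never in a LAD numbered 27 and spanned 146 Mb over all 19 ends. The longest were the 6 whole ends of 10 Mb, tied in length. On chr1 the longest genes included Esrrg, an orphan nuclear receptor, Kcnh1, a potassium channel, and Hhat, an acyltransferase that acts on hedgehog proteins. On chr5 they were Fry, Gm42906, Mtus2 and Bri3. The chr6 end held Sox5, a transcription factor, Itpr2, a calcium release channel, Pde3a, a cyclic nucleotide phosphodiesterase, and Lmntd1. On chr7 the longest genes were Shank2, a postsynaptic scaffold, Kcnq1, an imprinted potassium channel gene, Mgmt, a DNA repair enzyme, and Inpp5a. Those on chr8 were Gm20388, Pard3, a polarity protein, Gse1 and Ccdc7a, and those on chr9 were Rbms3, Ulk4, Itga9, an integrin, and Osbpl10.

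Of 2010 protein-coding genes with a start in the ends, 1786 (88.9%) were in a LAD in no mouse, 211 in 1 to 11 mice and 13 (0.647%) in at least 12, of which 4 in all 14. Of the 18797 genes in the rest, 82.3% were in a LAD in no mouse and 4.34% in at least 12. The protein-coding gene nearest to each chromosome end was in a LAD in no mouse on 15 of 19 chromosomes. The other 4 were Mettl4 on chr17, a methyltransferase (3 mice), Wls on chr3, which carries Wnt proteins to the cell surface (2 mice), Vmn2r87 on chr10, a vomeronasal receptor (2 mice), and Tmem196 on chr12 (1 mouse).

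Gene families at the ends split by chromosome. Of 89 olfactory receptor genes, 60 lay on chr10, and 58 of the 89 were in a LAD in 1 to 11 mice, 31 in none and 0 in at least 12, whereas 307 of 1039 outside the ends were in a LAD in at least 12 mice. Olfr718-ps1 on chr5 and Olfr522, Olfr523 and Olfr524 on chr7 were in a LAD in no mouse. Among the 6 vomeronasal receptor genes, Vmn2r84 and Vmn2r85 on chr10 were in a LAD in 4 mice each, and Vmn2r-ps159 on chr4 and Vmn2r18 on chr5 in none. The immunoglobulin heavy chain locus had 144 gene segments on chr12, of which 6 were in a LAD in no mouse, 97 in 1 to 11 and 41 in at least 12. The constant segments Igha, Ighe, Ighg2c and Ighg2b were among the 6.

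Of 55 keratin and keratin-associated protein genes, 24 on chr16 were in a LAD in 1 to 11 mice, and the 31 on chr7 and chr15, such as Krtap5-2 and Krtap5-3, in none. Of 44 zinc finger genes, 19 were in a LAD in 1 to 11 mice and 25 in none, including Zfp831. The 19 included Zfp968 (2 mice) and Zfp965 and Zfp969 (1 mouse each) on chr2. Genes of a chr4 cluster were in a LAD in more mice, such as Zfp989 (9 mice) and Zfp991 and Zfp988 (10 each). Outside the ends, 301 of 341 zinc finger genes were in a LAD in no mouse. Gene copies of these families can resemble each other, and how reads that map to several copies were treated is not stated in the sources used here.

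Several families were in a LAD in no mouse, as were 88.9% of all genes of the ends, so a family without a LAD is near what the ends show in general. These were the 15 potassium channel genes (such as Kcnk2 and Kcnh1), the 10 chemokine receptor genes of chr9 (such as Cx3cr1, Ccr8 and Ccr9), the 9 Hox genes of chr15 (such as Hoxc13, Hoxc12 and Hoxc11), which pattern the body axis, and the 8 ribosomal protein genes (such as Rps21 and Rpl22). The 7 organic anion transporter genes, among them Slco1b2 and Slco1a4, which carry bile acids and drugs, were likewise in none, as were 4 cadherin genes (Cdh26, Cdh4, Cdhr5 and Cdh15), 4 sodium channel genes (among them Scn10a and Scn11a) and the glypicans Gpc5 and Gpc6. Among 5 fibroblast growth factor genes, Fgf10 was in a LAD in 12 mice and Fgf3, Fgf4, Fgf15 and Fgf14 in none. Among 3 receptor subunit genes for GABA or glutamate, Grik1 on chr16 was in a LAD in 2 mice, and Gabrd and Grin2c in none.

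The time course was compared next. The mean end share was highest at CT18, 14.8% ± 0.968, and lowest at CT30, 8.34% ± 1.97 (SD, n = 2 mice each). It was 14.2% ± 0.744 at CT12, 12.3% ± 2.68 at CT0, 11.2% ± 0.707 at CT24 and 11.1% ± 1.97 at CT6. Differences between the 6 CTs did not pass the test (F = 3.93, exact permutation test over 10395 divisions of the 12 mice into pairs, p = 0.0636), and neither did those of the end share minus the rest (F = 3.33, exact permutation p = 0.0674). Over the alternatives, the end share did not pass in 19 of 23, nor the end share minus the rest in 21 of 26. The end share passed without CT0 replicate 1 (F = 6.14, exact permutation p = 0.0347) or CT0 replicate 2 (F = 5.86, exact permutation p = 0.0306), and the end share minus the rest without CT24 replicate 2 (F = 6.78, exact permutation p = 0.0139). With LADs of at least 1 Mb alone both passed (F = 7.18, exact permutation p = 0.00279, and F = 3.78, exact permutation p = 0.0464). The end share minus the rest also passed with the replicate number as a block (F = 2.83, exact permutation p = 0.0444). It did not with the deposited library number as a block (F = 2.42, exact permutation p = 0.0858). CT0 and NS differed by 1.11 points (12.3% against 11.2%, exact permutation p = 0.667, where 2 mice against 2 cannot go below 0.333). The direction of this difference depended on single mice, being -1.47 points without NS replicate 1, -0.789 without CT0 replicate 2, 3.68 without NS replicate 2 and 3.00 without CT0 replicate 1.

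The outer part of the ends passed as an alternative zone size, without adjustment over the alternatives. The last 20 Mb did not pass (F = 2.15, exact permutation test, n = 12, p = 0.194). In the last 5 Mb the share was 20.3% ± 0.149 at CT18 and 20.2% ± 0.670 at CT12, then 18.0% ± 2.53 at CT0, 17.3% ± 2.08 at CT6, 15.1% ± 0.447 at CT24 and 10.4% ± 0.149 at CT30 (n = 2 each), with F = 14.5 (exact permutation test, n = 12, p = 0.00519). From 5 to 10 Mb it was 4.89% at CT6, 9.37% at CT18 and 6.26% at CT30, with F = 0.791 (exact permutation test, n = 12, p = 0.593). The difference between these 2 zones in their time course was not tested. The bins outside the last 10 Mb were also lowest at CT30, 16.6% ± 0.0467, and highest at CT18, 26.7% ± 0.943 (n = 2 each). For the last 5 Mb minus the rest, F was 3.19 (exact permutation test, n = 12, p = 0.0291). LAD starts lay on grids of 31 and 46 kb at CT30, and of 5 to 19 kb at CT12 and CT18. The part of this grid step in the time course was not tested.

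No chromosome end was called between CTs after adjustment over 19 ends, and 3 had an unadjusted p under 0.05 by the exact permutation test. The chr3 end was at 39.5% ± 4.95 at CT18, 36.5% ± 0.707 at CT0, 32.5% ± 2.12 at CT12 and 22.0% ± 4.24 at CT6, against 5.50% ± 7.78 at CT24 and 6.50% ± 9.19 at CT30 (n = 2 each, exact permutation p = 0.00654, adjusted p = 0.111). The chr17 end was at 52.5% to 60.5% from CT0 to CT24 and at 37.0% ± 14.1 at CT30 (exact permutation p = 0.0116), and the chr13 end at 7.00% ± 9.90 at CT30 and 22.5% to 40.5% before (exact permutation p = 0.0383). Without CT30 replicate 1 the chr3 end was called (exact permutation test, adjusted p = 0.0439).

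Bins in a LAD in both mice of one time point and in neither mouse of another were counted as gained or lost. Between CT24 and CT30, 39 end bins were lost (2.05% of end bins, against 4.4% of all autosomal bins) and 2 gained (0.105% against 0.682%). Of the 39, 25 lay on chr10 and 12 on chr17, in runs at chr10:123894994-125194993, chr10:129094994-130294993 and chr17:88787272-89987271. The second run held Neurod4, a neuronal transcription factor, beside olfactory receptors, and the third Fshr and Lhcgr, the gonadotropin receptors. Between CT6 and CT18, 24 end bins were gained, 11 of them on chr14 (1.26% of end bins, against 1.61% of all autosomal bins). In the same interval 4 were lost (0.211% against 0.402%). From NS to CT0, 7 end bins were gained (0.368% against 0.662%) and 0 lost (0% against 0.272%). From CT0 to CT12, 1 was gained (0.0526% against 0.613%) and 2 lost (0.105% against 0.422%).

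Agreement between the mice of a time point varied. The Jaccard index of the LAD bins of both mice was 0.447 at CT30, 0.469 at NS, 0.519 at CT0, 0.619 at CT6, 0.721 at CT24, 0.741 at CT18 and 0.747 at CT12. In the rest it ran from 0.430 at NS to 0.783 at CT12, and the difference between ends and rest was -0.0278 ± 0.0910 over 7 time points, lower at the ends in 3 (exact sign-flip permutation test, n = 7, p = 0.562).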

How the data were processed

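LMNB1 ChIP-seq LADs of 14 mouse livers were used. The deposited files hold start and end positions of LADs in bp on mm10, and no other unit. Per the methods, the authors mapped reads with Bowtie (2.25.0 in the submitters' processing notes), removed duplicates with Picard, down-sampled ChIP and input to equal depth per chromosome and ran EDD on every mouse separately. LADs thus lack scores, and borders follow the EDD bin size of each library, read here as the grid of LAD starts. Inputs and RNA-seq were not analysed here.

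Coverage was computed per 100-kb bin from the chromosome end in Python 3.11.15 with NumPy 2.4.6, SciPy 1.17.1 and matplotlib 3.10.9. GC content, gaps and sequences came from RefSeq GRCm38.p6, and protein-coding genes from GENCODE vM21, ascribed by gene start. Within-mouse differences were compared by exact sign-flip tests, CTs by an exact permutation F test over divisions into pairs, and the grid step by permutation with 100000 resamples, all two-sided except the F test, at 0.05 with Benjamini-Hochberg adjustment over chromosomes. Tests were checked on simulated data. Labels do not exclude shared cages or days among the mice, or a shared input for the mice of a time point.

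Runs were 5 or more neighbouring bins in a LAD in at least 12, in 4 to 10 or in 0 mice. Named were the stable runs, the 4 longest variable runs and the longest free runs with up to 4 longest genes each, the gene nearest each end, and up to 4 members per family by position. Other features, among them the gained and lost runs, were named after their values were seen. Some genes and sequences that these rules select are not reported here. The members and lists were chosen with earlier results of these data known. Alternatives covered the bin threshold, origin and zone size, gap bins, LAD length, weighting, grouping by library number, blocks and leaving out each mouse.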

Additional observations from a re-analysis of the deposited data

How the results depend on the processing

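The lower share of the ends kept its direction and call in 28 of 31 alternatives, from -14.8 points without chr17 and chr18 (chosen after seeing the data) to -4.32 for the last 5 Mb. The call was lost with the rest weighted to GC (-0.245), and in libraries numbered 2 (-10.8) or 3 (-9.07), where 5 and 3 libraries cannot reach the threshold. The same holds for the difference from the centromere-proximal bins in number 2 (-11.9) and 3 (-7.84) and the slope in number 2 (-1.44) and 3 (-1.60). The slope also lost its call in number 1 (-1.16, n = 6, exact permutation p = 0.0625) and without chr17 and chr18 (-0.113). Leaving out 1 mouse gave -10.3 to -9.53, -9.96 to -9.13 and -1.47 to -1.31 for these 3 results.

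The F ratio of the end share between CTs did not pass the test in 19 of 23 alternatives, among them the last 20 Mb (2.15). It passed with LADs of at least 1 Mb (7.18) and in the last 5 Mb (14.5). Leaving out 1 mouse gave 2.42 to 6.14, and it passed without CT0 replicate 1 (6.14) or CT0 replicate 2 (5.86). For the end share minus the rest, F did not pass in 21 of 26 alternatives. It passed with LADs of at least 1 Mb (3.78), in the last 5 Mb (3.19), without chr17 and chr18 (4.39) and with the replicate block (2.83). Leaving out 1 mouse gave 2.62 to 6.78, passing without CT24 replicate 2. The cause was not tested. CT0 minus NS turned negative without NS replicate 1 (-1.47) and without CT0 replicate 2 (-0.789), and leaving out 1 mouse gave -1.47 to 3.68. The replicate agreement difference turned positive with LADs of at least 1 Mb (0.00280), in the last 5 Mb (0.0551), in the last 20 Mb (0.0252) and without CT30 replicate 1 or 2 (0.00250). Leaving out 1 mouse gave -0.0421 to 0.00250.

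Chromosomes whose end was called numbered 16 to 18 without 1 mouse and 12 to 18 over all alternatives, the fewest with GC weighting of each end. chr12 was called lower in 5 settings (without CT30 replicate 1, without gap bins, with LADs of at least 1 Mb, in the last 20 Mb and with the first 13 Mb left out of the rest). In the last 20 Mb 11 ends were lower and 5 higher, with chr14 and chr16 turned to higher. chr19 was called lower in the last 5 Mb, where the call of chr10 was lost, and chr3 lost its call with LADs of at least 1 Mb. Between CTs, 0 to 1 ends were called, the 1 being chr3 without CT30 replicate 1. The correlation with grid step was 0.104 to 0.441 without 1 mouse.

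Whether replicate numbers pair the mice could not be decided from 2 mice per time point. Of 21 pairs of time points, 6 had a correlation of deviations over 0.1. The highest was that of CT0 and CT6, 0.650, and the lowest that of NS and CT24, -0.521. With the replicate number as a block, F was 3.78 for the end share (exact permutation p = 0.0639) and 2.83 for the end share minus the rest (exact permutation p = 0.0444, past the threshold), CT0 minus NS was 1.11 and 0 ends were called between CTs. With the deposited library number as a block, F was 2.65 (exact permutation p = 0.145) and 2.42 (exact permutation p = 0.0858), neither past the threshold.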
